A study of Mus musculus with 4 samples.

Results

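The serpin transcripts of mouse liver were followed between the fasted and the re-fed state. Members were all non-control spots whose gene name on the array begins with Serpin, a clade letter from a to i and a digit, a rule that uses names and no measured value. It selected 84 of 44397 spots, which were 75 of 39429 gene probes and represented 59 genes, 22 of clade A, 26 of clade B and 11 of clades C to I. Of these, 43 probes of 32 genes gave a usable signal, among 19719 probes of 16053 genes in all. Livers came from male C57BL/6J mice of 8 to 12 weeks, and the labels name no transgene or drug for either group. The fasted mice had been without food for 24 h, and the re-fed mice had eaten for 2 h after an equal fast. Both groups thus share the fast, and they differ in the meal and in the 2 h that passed before sampling.

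Serpins are a superfamily of proteins that mostly inhibit serine proteases. The protease cuts an exposed loop of the serpin, the serpin snaps into a more stable fold, and the enzyme is dragged along and crushed in a covalent complex, so each molecule works once. Hepatocytes secrete most of the plasma serpins, which restrain neutrophil elastase, thrombin, plasmin and the first complement proteases, while clade B members remain inside cells. Several family members inhibit nothing and carry hormones or chaperone collagen instead.

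RNA of 1 fasted and 1 re-fed liver was labelled with different dyes, Cy5 (red) and Cy3 (green), and hybridised together to an oligonucleotide array, and this was done for 4 pairs of livers. Each array is a replicate (n = 4), with the fasted liver in Cy5 on replicates 1 and 2 and in Cy3 on replicates 3 and 4. A ratio below is the log2 ratio of fasted over re-fed liver, so a negative value is a lower level in the fasted liver, and a level is the log2 normalised intensity of 1 liver, which has no meaning between probes. A gene was called at an adjusted p under 0.10 in limma with a change of at least 1.5-fold. Median spot signals lay between 40 and 96 over local backgrounds of 20 to 35, and with 4 arrays the errors below are wide. All 10 hepatocyte markers were above background. The re-fed liver of replicate 3 stood apart: 21 pancreatic acinar markers summed to 55451 there, against 2350 to 2542 in the other re-fed livers and 2436 to 3351 in the fasted ones. Red cell markers also differed between arrays. The 6 measured had median ratios of 2.21, -0.26, 2.41 and 0.30 on replicates 1 to 4, with 0 called, and the summed level of the list was 67651 to 286391 in the fasted and 35215 to 87599 in the re-fed livers. The part of either cell type in the serpin ratios was not tested. Serpins with an adjusted p under 0.10 are also given without replicate 3. In whole liver, fewer cells of a type and less RNA per cell cannot be told apart.

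The mean ratio of 27 of the 32 serpins lay within 1.5-fold of equal levels, and of the 5 called, 4 were lower in the fasted liver. Serpina4-ps1, Serpina9, Serpinh1 and Serpina7 were called lower in the fasted liver, which is 4 of 32 genes (12.5%) where 2.13% of all genes tested were called lower. Serpina9 and Serpina7 passed the filter on dim probes only through the re-fed livers, and with both channels required above background 2 of 29 serpins were called lower, beside 2.25% of all genes so filtered. Leaving out replicate 1, 2, 3 or 4 gave 3, 2, 1 and 5 of 32 serpins called lower, where the shares of all genes were 2.67%, 1.51%, 1.31% and 1.74%. The background was corrected by normexp, a model of signal and background, after 55 spots with a high local background had been left out, a step chosen after values with and without it had been seen. With normexp fitted to all spots, 0 serpins were called in either direction, and the adjusted p of each of the 5 genes was 0.559. The share of all genes called under that setting was not counted, so this loss cannot be read as particular to the serpins. The same 5 genes were called from the log2 ratios that the authors deposited and from the scanner's processed signals, from which those spots were not removed. Serpinb6b was the only serpin called higher, 1 of 32 (3.12%), where the background was 1.82%. With no fold limit 7 of 32 genes (21.9%) had an adjusted p under 0.10, the other two being Serpina10 and Serpinb6a, beside 11.3% of all genes. The levels of the 4 fasted and 4 re-fed livers did not overlap for 5 of 32 genes (15.6%), a share close to the 13.9% of all genes. The median ratio of the 32 genes was 0.06, and that of all genes was 0.00330. The ratio had one sign on all 4 arrays for 6 genes, on 3 arrays for 15 and on 2 arrays for 11.

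**Figure D1:**
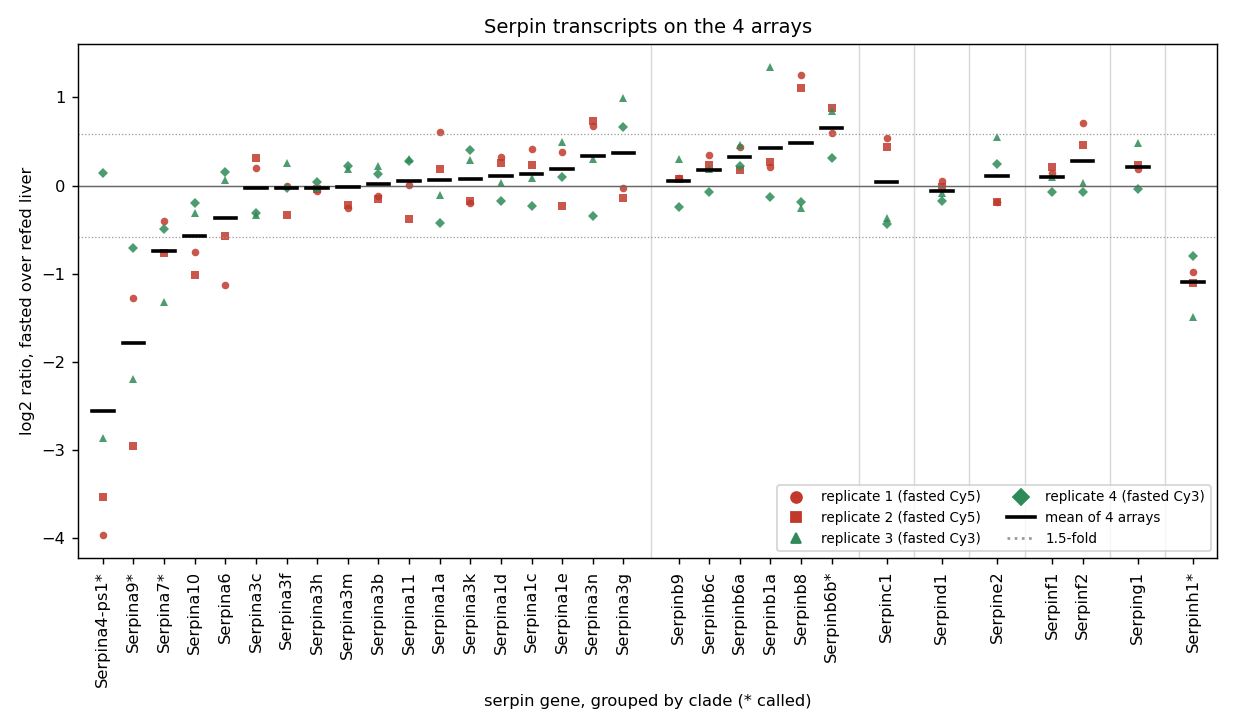
Log2 ratio of fasted over re-fed liver (y axis) of 31 of the 32 serpin genes with a usable signal (x axis, grouped by clade), with 1 symbol per array, coloured by the dye of the fasted liver, and a bar at the mean. The 4 genes called lower have means from -2.56 to -0.75, Serpinb6b has a mean of 0.66, and the other means lie between -0.57 and 0.48.

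For 20 of the 27 serpins that were not called, the 95% confidence interval of the ratio lay within 1.5-fold on both sides, so that a larger change of these transcripts is outside the interval. For the other 7 (Serpina10, Serpina6, Serpinf2, Serpina3n, Serpina3g, Serpinb1a and Serpinb8) the interval reached beyond that size.

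**Figure D2:**
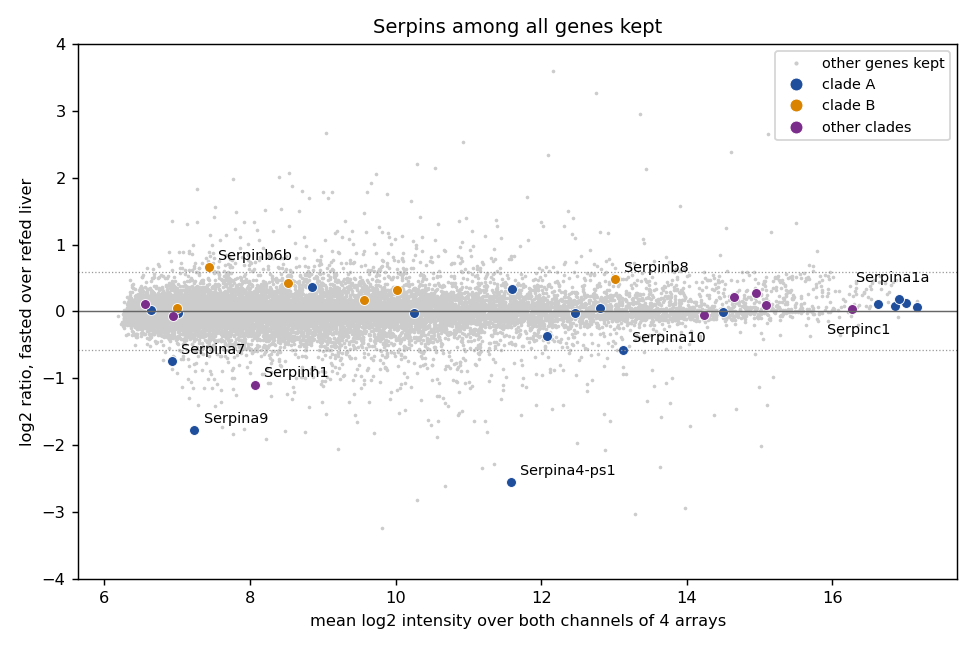
Mean log2 ratio of fasted over re-fed liver (y axis) against mean log2 intensity over both channels of the 4 arrays (x axis) for all 16053 genes, with serpins coloured by clade and dotted lines at 1.5-fold. The called serpins lie outside the dotted lines, 1 gene lies beyond the y axis, and the x axis describes the brightness of a probe, which cannot be read as abundance between genes.

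Serpina4-ps1, a transcribed pseudogene related to kallistatin, had the mean ratio farthest from 0 in the family, although that of Serpina9 was farther under plain background subtraction and with the scanner's processed signals. Its levels in the fasted livers were 9.62, 9.78, 10.10 and 11.76 on replicates 1 to 4, and in the re-fed livers 13.58, 13.31, 12.97 and 11.62. Replicates 1 to 3 thus showed a large difference, with ratios of -3.96, -3.54 and -2.87, and replicate 4 had a ratio of 0.14. On replicate 4 both livers lay between the fasted and the re-fed levels of the other arrays. The unnormalised signals there were 4552 fasted and 4239 re-fed, while the other fasted livers gave 435 to 1211 and the other re-fed livers 8938 to 9732. The mean ratio was -2.56 ± 1.85 (SD, n = 4), a 5.88-fold lower level with an adjusted p of 0.0742 in limma, and its direction was shared by 3 of 4 arrays. Without replicate 4 the ratio was -3.45 with an adjusted p of 0.00875. Leaving out replicate 1, 2 or 3 instead ended the call, with adjusted p of 0.166, 0.217 and 0.223.

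The gene has a second probe, which gave the same mean ratio of -2.56 (adjusted p = 0.0691). The probes share a run of 49 bases on chromosome 12 and are not independent measurements. Their last 30 bases, shown because the overlap and the hexamer of a polyadenylation signal (ATTAAA, in capitals) place both probes on the same stretch, are as follows.
Serpina4-ps1, probe at chr12:105325060-105325119 (mm9): gtgtcacactgATTAAAacaaatgatatct
Serpina4-ps1, probe at chr12:105325068-105325127 (mm9): ctgATTAAAacaaatgatatctctgagacc

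Serpina9, also called centerin and known from germinal centre B cells, was lower in every fasted liver. Its levels were 6.54, 6.24, 6.29 and 6.37 in the fasted livers and 7.81, 9.19, 8.48 and 7.08 in the re-fed livers. The fasted livers were nearly level, the re-fed livers were spread over a wide range, and the groups did not overlap. The ratios were -1.27, -2.95, -2.19 and -0.71, with a mean of -1.78 ± 0.99 (SD, n = 4; adjusted p = 0.0402 in limma). The probe was well above background in only 2 of the 4 fasted livers but in all re-fed ones, so its fasted level is close to the limit of measurement and the size of the change depends on the background correction. The mean ratio was -3.16 under plain subtraction, -3.69 with the scanner's processed signals and -1.08 with normexp fitted to all spots. Without replicate 3 the ratio was -1.64 and the call was lost (adjusted p = 0.149). None of the 9 leukocyte markers measured was called, with a median ratio of 0.13 and a summed level of 9767 to 11806 in the fasted and 7001 to 10716 in the re-fed livers. The last 30 bases of the probe hold the hexamer AATAAA in capitals.
Serpina9, probe at chr12:105234830-105234889 (mm9): cagcactgcattcAATAAAcctgaaatgtg

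Both genes belong to the clade A cluster on chromosome 12, in which 17 of 21 genes gave a usable signal. Serpina9 and Serpina4-ps1 follow each other among these 17, with Serpina12, which gave no usable signal, between them. The nearest measured gene on one side is Serpina11, a secreted serpin without an established target, with a ratio of 0.05 ± 0.32 (SD, n = 4). On the other side it is Serpina3b at 0.02 ± 0.18 (SD, n = 4), beyond Serpina5 and Serpina3a, which also gave no usable signal. At the far end of the cluster Serpina10 and Serpina6 follow each other among the measured genes, with means of -0.57 and -0.37.

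**Figure D3:**
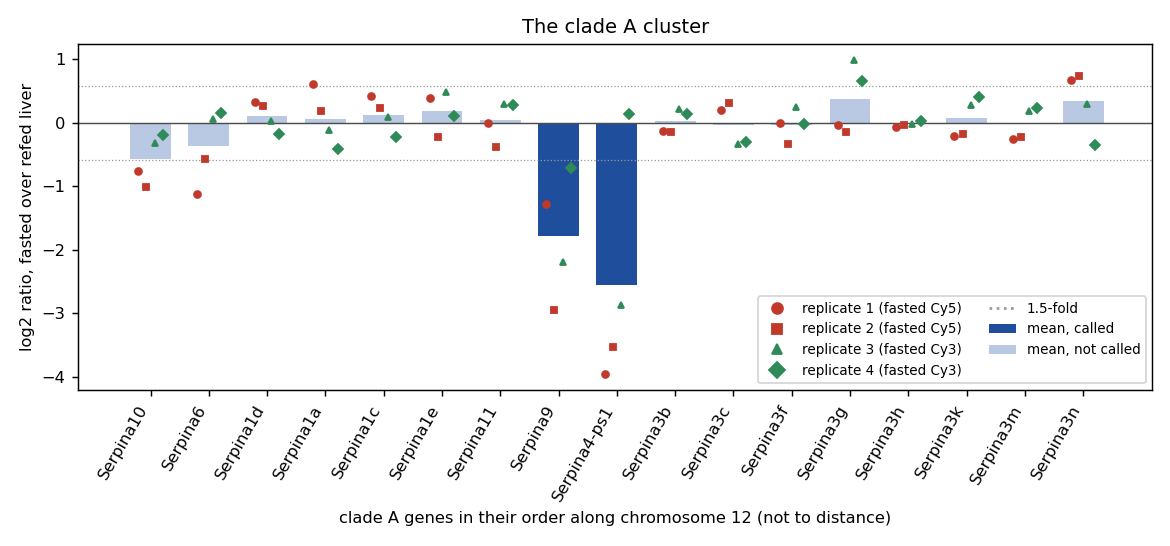
Log2 ratio of fasted over re-fed liver (y axis) of the 17 measured clade A genes in their order along chromosome 12 (x axis, order only), with bars at the mean and 1 symbol per array. The dark bars are the called genes Serpina9 (-1.78) and Serpina4-ps1 (-2.56), and the nearest measured genes have means of 0.05 and 0.02.

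The hormone carriers of clade A do not act as protease inhibitors. Serpina7 is thyroxine-binding globulin, which carries thyroid hormone in plasma. Its levels were 6.41, 6.53, 6.31 and 6.85 in the fasted livers and 6.81, 7.30, 7.63 and 7.34 in the re-fed livers. The fasted liver was lower on each array, but the highest fasted liver (replicate 4) lay above the lowest re-fed liver (replicate 1), so the groups overlapped. The ratios were -0.40, -0.76, -1.32 and -0.50, with a mean of -0.75 ± 0.41 (SD, n = 4; adjusted p = 0.0478 in limma). The probe was well above background in 2 of 4 fasted and all 4 re-fed livers, and the size of this change also moved with the background correction. The mean ratio was -1.46 under plain subtraction, -2.01 with the scanner's processed signals and -0.30 with normexp fitted to all spots. The call was lost without replicate 2 (-0.74, adjusted p = 0.149) and without replicate 3 (-0.55, adjusted p = 0.103). Serpina7 lies on the X chromosome, and the coordinates of its probe of 60 bases span 655 bases, at chrX:135615848-135616502 (mm9).

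Serpina6 is corticosteroid-binding globulin, the plasma carrier of glucocorticoids. Its levels were 10.94, 11.56, 12.40 and 12.65 in the fasted livers and 12.07, 12.13, 12.34 and 12.50 in the re-fed livers. The fasted liver was lower on replicates 1 and 2 and slightly higher on replicates 3 and 4, with ratios of -1.12, -0.57, 0.06 and 0.15. The mean of -0.37 ± 0.60 (SD, n = 4) did not pass the test (adjusted p = 0.392 in limma), and a second probe gave -0.32. At the first probe the sign of the ratio followed the dye of the fasted liver, with an estimated dye effect of -0.48 (adjusted p = 0.0520), and with a dye term in the model its adjusted p was 0.0520. The second probe had ratios of -0.97, -0.33, -0.16 and 0.18, whose sign did not follow the dye, and it passed neither test (dye effect -0.33, adjusted p = 0.145, and adjusted p = 0.124 with a dye term).

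Serpina10 is the protein Z-dependent inhibitor of coagulation factor X. Its levels were 13.02, 12.58, 12.91 and 12.87 in the fasted livers and 13.78, 13.59, 13.22 and 13.06 in the re-fed livers, with no overlap between groups. The ratios of -0.76, -1.02, -0.31 and -0.19 had a mean of -0.57 ± 0.38 (SD, n = 4; adjusted p = 0.0808 in limma), a 1.49-fold lower level that falls just short of the fold limit. A second probe gave -0.48 ± 0.12 (SD, n = 4; adjusted p = 0.0255). The dye effect was -0.32 at the first probe (adjusted p = 0.0564 in limma) and -0.10 at the second (adjusted p = 0.312). The gene crossed the fold limit, with an adjusted p under 0.10, under plain background subtraction (-0.60), under median centring (-0.72) and without replicate 4 (-0.70). Without replicate 1, 2 or 3 its adjusted p was 0.185, 0.197 and 0.161.

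**Figure D4:**
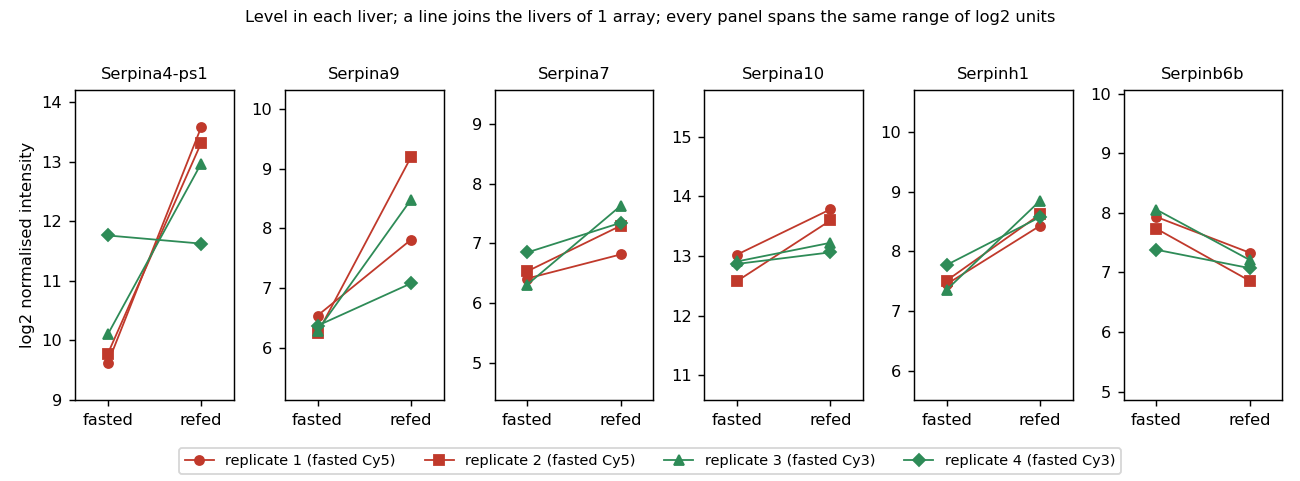
Log2 normalised intensity in each liver (y axis) of the 5 called serpins and Serpina10, with fasted livers at the left and re-fed livers at the right of each panel and a line joining the livers of 1 array. The lines rise from fasted to re-fed liver on every array for Serpina9, Serpina7, Serpina10 and Serpinh1 and on 3 of 4 for Serpina4-ps1, and they fall on every array for Serpinb6b.

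Mice carry several copies of the gene for α1-antitrypsin, the plasma inhibitor of neutrophil elastase, and 4 of the 5 Serpina1 genes on the array were measured. Their mean ratios were 0.07 ± 0.44 for Serpina1a, 0.11 ± 0.23 for Serpina1d, 0.13 ± 0.27 for Serpina1c and 0.19 ± 0.32 for Serpina1e (SD, n = 4 each), and none was called. The 95% interval of the largest of these, that of Serpina1e, ran from -0.12 to 0.50. Second probes of Serpina1a and Serpina1e, which share a run of 17 bases, gave 0.09 and 0.22. The first probes of these genes and that of Serpina1c are too alike to separate the copies fully. Of these, the probes of Serpina1a and Serpina1c share a run of 47 bases of 60, and each shares 29 bases with that of Serpina1e. The values above are therefore uncertain as values of single copies. An aligned stretch of 30 bases from each probe is shown with the positions at which they differ in capitals.
Serpina1a: taaAaTgtcatccttccttctgaattgggt
Serpina1c: taaGaTgtcatccttccttctgaattgggt
Serpina1e: taaGaAgtcatccttccttctgaattgggt

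The Serpina3 genes are the expanded mouse counterpart of α1-antichymotrypsin, an acute phase inhibitor of chymotrypsin-like proteases, and 8 of 9 on the array were measured. None was called, 4 had means above 0 and 4 below, and their median was 0.00312. Serpina3h had the closest arrays, with ratios from -0.06 to 0.03 and a mean of -0.02 ± 0.04 (SD, n = 4). Serpina3f, Serpina3b, Serpina3c and Serpina3m had means between -0.03 and 0.02, and Serpina3k, a binding protein of tissue kallikrein, had a mean of 0.08 ± 0.31 (SD, n = 4). Serpina3n and Serpina3g had the highest means of the group. The ratios of Serpina3n were 0.67, 0.73, 0.30 and -0.35 (mean 0.34 ± 0.50, SD, n = 4; adjusted p = 0.359 in limma), and those of Serpina3g were -0.03, -0.14, 0.99 and 0.66 (mean 0.37 ± 0.55, SD, n = 4; adjusted p = 0.355). Without replicate 3 the mean of Serpina3g was 0.16. The 4 Serpina3 genes with a dye effect were Serpina3g, Serpina3c, Serpina3k and Serpina3m, and in each the sign of the ratio differed between replicates 1 and 2 and replicates 3 and 4. Among 23 hepatic acute phase genes, 1 was called lower (4.35%, beside 2.13% of all genes), Steap4 at -0.68, and 0 were called higher. Steap4 lost its call without replicate 3, at -0.56. The median of that list was 0.15.

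Serpinh1, better known as HSP47, is the collagen chaperone of the endoplasmic reticulum and inhibits no protease. Its levels were 7.45, 7.51, 7.36 and 7.77 in the fasted livers and 8.43, 8.62, 8.85 and 8.57 in the re-fed livers. Every fasted liver lay below every re-fed liver, and the groups were separated by 0.66. The ratios were -0.98, -1.11, -1.49 and -0.80, with a mean of -1.10 ± 0.29 (SD, n = 4), a 2.14-fold lower level (adjusted p = 0.0102 in limma). It was the only serpin that remained called when any single array was left out, with adjusted p between 0.0217 and 0.0540. Without replicate 3 the adjusted p was 0.0312. The mean ratio was -1.42 with the scanner's processed signals and -0.55, under the fold limit, with normexp fitted to all spots.

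Lists of genes connected with Serpinh1 were read beside it. Of 27 measured collagens and collagen folding enzymes, 2 (7.41%) were called lower and 0 higher, where 2.13% of all genes were called lower. Both are alternative alpha subunits of the prolyl hydroxylases that prepare collagen chains in the same compartment. P4ha1 had a mean ratio of -1.15 and P4ha2 one of -1.07, and the median of the list was -0.04. Both remained called without replicate 3, at -1.04 and -1.14. Of 19 measured heat shock genes, 16 were called lower (84.2%) and 0 higher, with a median of -1.31. Without replicate 3, 12 were called lower, where the share of all genes was 1.31%, and the median was -1.28. The largest changes were those of Hsph1 at -2.28, Hsp90aa1 at -2.08, Hspa1a at -1.84, Bag3 at -1.81, Dnaja1 at -1.72 and Chordc1 at -1.62. None of 11 stellate cell and fibroblast markers, the cells that make most collagen in liver, was called, and their median ratio was 0.02.

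The promoter table held 48 of the 59 genes, and no letters matching TGACG, TGACGTCA or GAANNTTC, read on both strands, were found in the window of any called serpin it listed (Serpinh1, Serpinb6b and Serpina7). TGACG is the core of the cAMP response element TGACGTCA and lies within it, and GAANNTTC is a minimal heat shock element. They occur in 20.8%, 1.79% and 7.86% of all 32851 windows of the same length, from 250 bases before to 50 after the start. The 250 bases before the start of Serpinh1 are shown with the triplets GAA and TTC, the units of a heat shock element, in capitals. The number of such triplets in other promoters was not counted, so their number here cannot be read as high or low. Their part in the ratio was not tested. The stretch holds 5 such triplets, none paired as GAANNTTC, and is at chr7:99353240-99353489 on the minus strand (RefSeq, GRCm38.p6).
Serpinh1: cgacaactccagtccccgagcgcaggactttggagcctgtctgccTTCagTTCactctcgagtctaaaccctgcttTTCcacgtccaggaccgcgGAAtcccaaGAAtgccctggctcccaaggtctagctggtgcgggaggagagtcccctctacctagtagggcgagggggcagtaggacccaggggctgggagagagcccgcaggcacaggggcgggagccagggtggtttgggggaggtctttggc

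Clade B serpins lack a classical secretion signal and protect cells from proteases released within them. Only 6 of their 26 genes gave a usable signal, and all 6 means were above 0, as were 8147 of all 16053 genes. On replicate 4 the median ratio of the 6 was -0.10. Serpinb6b was the gene called higher. Its levels were 7.93, 7.73, 8.05 and 7.38 in the fasted livers and 7.33, 6.86, 7.21 and 7.07 in the re-fed livers, and each fasted liver was above each re-fed liver. The ratios were 0.60, 0.88, 0.84 and 0.31, with a mean of 0.66 ± 0.26 (SD, n = 4), a 1.58-fold higher level (adjusted p = 0.0284 in limma). The call was lost without replicate 2 (0.58, adjusted p = 0.106) and without replicate 3 (0.59, adjusted p = 0.124). The mean ratio was 1.09 with the scanner's processed signals and 0.38, under the fold limit, with normexp fitted to all spots. The probe lies at chr13:33070776-33070835 (mm9).

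The Serpinb6 genes are intracellular inhibitors in a cluster on chromosome 13, of which 3 of 4 were measured. Serpinb6a had levels of 10.22, 10.14, 10.32 and 10.04 in the fasted livers and 9.78, 9.96, 9.87 and 9.82 in the re-fed livers. The groups did not overlap and the difference was small, with ratios of 0.44, 0.18, 0.46 and 0.22 and a mean of 0.33 ± 0.14 (SD, n = 4; adjusted p = 0.0782 in limma), under the fold limit at 1.25-fold. Leaving out any single array raised the adjusted p above 0.10, to 0.181, 0.140, 0.284 and 0.167 without replicates 1 to 4. The adjusted p was 0.120 under plain subtraction, 0.110 with the scanner's processed signals and 0.559 with normexp fitted to all spots. Under median centring the ratio was 0.20 with an adjusted p of 0.2845. Serpinb6c had a mean of 0.17 ± 0.18 (SD, n = 4) and did not pass the test. The probes of Serpinb6a and Serpinb6c share a run of 26 bases, and the differing positions of an aligned stretch are in capitals below, with Serpinb6e, which gave no usable signal, for comparison. The probe of Serpinb6b shares no run of 15 bases with any of them.
Serpinb6a: aagtgaccttatccataaGtGCaatgGcaA
Serpinb6c: aagtgaccttatccataaGtGCaatgAcaG
Serpinb6e: aagtgaccttatccataaAtATaatgAcaG

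The other clade B genes were less even between arrays. Serpinb1a, an inhibitor of neutrophil elastase and cathepsin G, had ratios of 0.21, 0.27, 1.34 and -0.13 (mean 0.42 ± 0.64, SD, n = 4; adjusted p = 0.361 in limma), so that replicate 3 made most of its mean, which was 0.12 without it. Serpinb9, the inhibitor of granzyme B, had a mean of 0.05 ± 0.23 (SD, n = 4). Serpinb8 had ratios of 1.25, 1.10, -0.26 and -0.19 (mean 0.48 ± 0.81, SD, n = 4; adjusted p = 0.406). Its ratio was high where the fasted liver carried Cy5 and slightly negative where it carried Cy3, with a dye effect of 0.70 (adjusted p = 0.00586), the lowest p for a dye effect in the family. Of the 60 bases of its probe, 38 lie in repeats of TG, in capitals in the last 30 bases here.
Serpinb8: aTGTGTGTGTGTGTGcctcTGTGTGTGTGt

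The members of clades C to G, most of which inhibit proteases of coagulation, fibrinolysis or complement, gave no call. Serpinc1, antithrombin, had ratios of 0.53, 0.44, -0.37 and -0.44, which cancel to a mean of 0.04 ± 0.52 (SD, n = 4), with a dye effect of 0.44 (adjusted p = 0.0256). Serpind1, heparin cofactor II, was one of the most even members, with ratios between -0.18 and 0.05 and a mean of -0.06 ± 0.10 (SD, n = 4). Serpine2, protease nexin 1, had a mean of 0.11 ± 0.36 (SD, n = 4). Serpinf1, pigment epithelium-derived factor, which inhibits no protease, had a mean of 0.10 ± 0.12 (SD, n = 4). Serpinf2, the inhibitor of plasmin, had ratios of 0.70, 0.46, 0.03 and -0.07 (mean 0.28 ± 0.37, SD, n = 4; adjusted p = 0.326 in limma). Serping1, the C1 inhibitor of complement and the contact system, had a mean of 0.21 ± 0.22 (SD, n = 4; adjusted p = 0.285), with 3 of 4 arrays above 0.

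The proteases that serpins act on and other proteins of plasma were read beside the family. Of 21 measured target proteases 0 were called, with means from -0.14 to 0.34 and a median of 0.13. At an adjusted p under 0.10 in limma with no fold limit 0 of them passed either. Of 25 other protease inhibitors 0 were called, with a median of 0.16. With no fold limit Slpi alone of these passed, at -0.40 (adjusted p = 0.0682 in limma). Spink3, the acinar trypsin inhibitor, had a ratio of -3.11 on replicate 3 and of -0.18 to -0.00354 on the others, as the acinar markers above. Of 10 plasma carrier proteins 0 were called, with a median of 0.13. Clade A had a median of 0.00312 over 18 genes, and the other clades 0.14 over 14 genes.

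**Figure D5:**
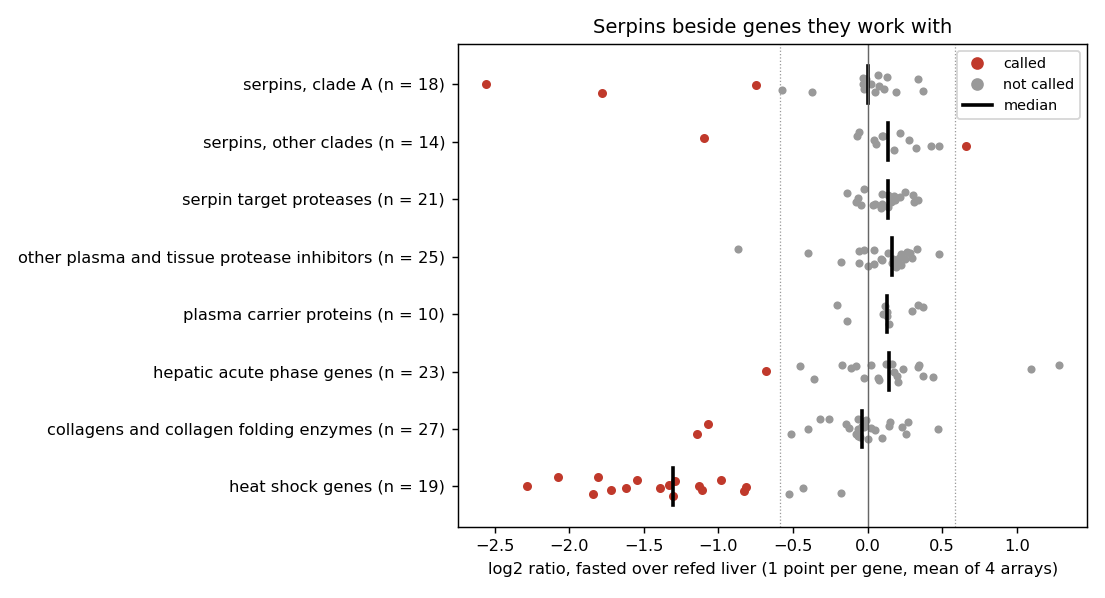
Mean log2 ratio of fasted over re-fed liver (x axis) of the measured genes of each list (y axis), 1 point per gene, with called genes in red and a bar at the median. The heat shock genes have a median of -1.31, and the medians of the other lists drawn, which leave out the cell type markers, lie between -0.04 and 0.16.

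A gene-specific dye effect was frequent among the serpins, and this bears on all ratios that change sign between replicates 1 and 2 and replicates 3 and 4. It passed an adjusted p of 0.10 for 11 of 32 genes (34.4%), where the share of all genes was 15.4%. These were Serpinb8, Serpinc1, Serpina3g, Serpina3c, Serpina6, Serpina10, Serpina3k, Serpinf2, Serpine2, Serpina3m and Serpina1a. None of the 5 called genes was among them. The brightest kept probe stands for each gene here, and at their second probes Serpina6 and Serpina10 did not pass. A dye effect cancels in the mean of 4 arrays with both orientations but widens its error. With a dye term in the model, 12 of 32 genes had an adjusted p under 0.10, beside 26.9% of all genes, the further 5 being Serpina6, Serpina3n, Serpina3g, Serpinb8 and Serpinf2, and the called genes were as before.

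No usable signal was obtained for 27 genes, of which 21 were not well above background in any liver. In clade A these were Serpina12, Serpina1f, Serpina3a and Serpina5. In clade B they were Serpinb10, Serpinb11, Serpinb12, Serpinb13, Serpinb1b, Serpinb1c, Serpinb2, Serpinb3a, Serpinb3b, Serpinb3c, Serpinb3d, Serpinb5, Serpinb6e, Serpinb7, Serpinb9b, Serpinb9c, Serpinb9d, Serpinb9e, Serpinb9f and Serpinb9g. The others were Serpine3, Serpini1 and Serpini2. Serpini2, a serpin of pancreatic acinar cells, had an unnormalised signal of 156 in the re-fed liver of replicate 3 and of 30 to 71.5 in the other livers, and it was well above background in that liver only. Another 4 genes that RefSeq now names as serpins carried other names in the files and were not members, and the one of these with a usable signal, Serpina3i, had a ratio of 0.02.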

How the data were processed

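Total RNA of 8 livers was amplified, labelled and hybridised by the authors, 200 ng per liver, in a dye swap on 4 arrays. The authors deposited raw median spot and local background intensity from Agilent's Feature Extraction software, with its processed intensity and quality flags, and a second table of log2 ratios that they had normalised by loess in limma. The rows of that table follow the row order of the scanner files (correlation with the ratios used here 0.975 to 0.992 over kept probes).

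In limma 3.58.1 (R 4.3.3), median signals were corrected by normexp (offset 50) and normalised by loess within arrays. Flagged outlier spots (197 to 322 per array) were left out, as were 55 spots with a local background over 3 times the array's median. The last step was chosen after values with and without it had been seen. Spots of a probe were averaged. A probe was kept if all 4 fasted livers or all 4 re-fed livers were well above background and no array lacked a value. The mean ratio was tested against 0 by lmFit and eBayes (two-sided), and p-values were adjusted over the kept probes by the Benjamini-Hochberg method. The test, the calling rule and the turning of dye orientation were tried on simulated ratios, and the steps before them were not. Alternatives covered the background correction, normalisation, filters, dye term, test, thresholds and each replicate left out. Levels per liver are channel values after Aquantile. A gene is represented by its brightest kept probe, and every serpin with a kept probe is named except 1, which is not reported here by name. Of the other lists, called genes are named, up to 6 per list, and Spink3 and Slpi were named after their values were seen. Members and lists were chosen with earlier results of these data known. P-values measure the spread between arrays. All arrays came from 1 slide and 1 scan. Probe coordinates are those of the files (mm9). Promoters are RefSeq's (GRCm38.p6), and protein sequences were not used here.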

Additional observations from a re-analysis of the deposited data

Results flagged for a closer look

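The median ratio of the pancreatic acinar markers was -2.78 on replicate 3 and -0.00683 to 0.04 on the other arrays. The gap to the nearest array was 0.983 of the whole range, more than Dixon's 95% critical value allows for 4 samples. Chance marks about 1 in 20 groups in this way, and 32 serpin genes and 15 lists were examined, of which no serpin gene was marked. The part of this liver's acinar RNA in the serpin ratios of replicate 3 was not tested.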

How the results depend on the processing

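The test of ratios within arrays already pairs the livers of an array. With the channels fitted separately and no replicate block, 1 serpin was called higher and 4 lower, the same 5 genes, and the adjusted p of Serpina4-ps1 was 0.0233. Across 19 alternatives the 5 called genes and Serpina10 and Serpinb6a kept their direction wherever they were measured. With normexp fitted to all spots, 0 serpins were called higher and 0 lower (adjusted p 0.559 for each called gene), and the share of all genes called was not counted. The authors' deposited log2 ratios, Agilent's processed signals and no background correction each gave 1 higher and 4 lower, and plain subtraction 1 and 5, with the same 5 genes called in all of these and Serpina10 added under plain subtraction. With both channels required above background 2 were called lower, because Serpina9 and Serpina7 then fail the filter. With no fold limit 2 were called higher. Under median centring the median of the 32 genes was -0.0617. Leaving out 1 array gave 0 to 1 genes called higher and 1 to 5 called lower, with 0 higher without replicate 2 or 3, 2 lower without replicate 2 and 1 lower, Serpinh1, without replicate 3. Serpina4-ps1 was also lost with no filter on dim probes (adjusted p 0.126) and at an adjusted p under 0.05. The medians of clade A and of the other clades moved by less than 1 SD between arrays under all alternatives. Serpina9 and Serpina7 were close to background in fasted liver, which limits how well the size of their change is known.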
